A study of Sus scrofa with 40 samples.

Results

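Pork belly (PB) was set against the trapezius (TM) in Chalu black pigs, a pork breed, across the genes of a table of RNA-sequencing read counts. The samples were chosen by the cut of meat in their titles, PB or TM, which gave 10 PB and 10 TM libraries, 20 of the 40 in the series; the other 20 are longissimus dorsi (LDM) and hamstring (HM) libraries. All pigs were males by one sire, raised in one environment and slaughtered after fasting; tissue was taken on the left of each carcass with fascia avoided, and the labels give no age, no treatment and no word on which layers of the belly were taken. One library, PB1, has labels that disagree: its title and description say PB, and longissimus stands in its tissue and source. The title decided its group, and its profile lay nearest to the mean of the other PB libraries. Of the genes that a naming rule took, those that lost their call without it are given.

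The belly wall is built from flat abdominal muscles and the skin muscle with layers of fat between them, whereas the trapezius is a postural muscle of the neck and shoulder. Skeletal muscle fibres are slow or fast according to the myosin, troponin and calcium-handling proteins they make, and muscles differ in their supply of mitochondria, fat cells, vessels and nerves. Muscles of different body regions also keep the expression of transcription factors that patterned the embryo, the HOX and ZIC families among them.

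The libraries held between 12305913 and 15907082 counts in PB and between 13994947 and 17735722 in TM. Values are given as CPM, counts relative to the library total after TMM scaling, and differences as log2 change, PB minus TM, with the standard error (SE) of a quasi-likelihood fit in edgeR. A gene was called when its p, adjusted by Benjamini-Hochberg over the 11713 genes tested, was under 0.05. All 10 PB libraries were nearest to the mean of their own cut, as were 8 of the 10 TM libraries. The exceptions were TM3, nearest to HM, and TM7, nearest to LDM. The mitochondrial genome gave 9.31% to 16.2% of the counts in PB, against 5.37% to 11.5% in TM. Slow fibre genes summed to between 33954 and 82991 CPM in PB and between 13912 and 136450 CPM in TM, and keratinocyte genes to at most 46.8 CPM in PB and 48.4 CPM in TM, so both cuts carried a muscle profile. The labels do not say whether a library number marks a pig, and the p-values measure the spread between these libraries, which may in part be technical.

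Belly and trapezius differed in 2706 of the 11713 tested genes, which is 23.1% of them. Of these, 1571 were higher in PB (13.4% of the tested genes) and 1135 were lower (9.69%). The called genes higher in PB had a median log2 change of 0.87, and those lower in PB one of -0.58. A change of at least 2-fold was met by 748 genes (6.39%), by 605 genes higher in PB (5.17%) and 143 lower in PB (1.22%). The median of all tested genes was -0.06. The shares of 13.4% and 9.69% are the background for every list count below.

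The share of called genes that were higher in PB was 58.1%, and it moved with the scaling: it was 47.3% with upper-quartile scaling (1427 higher, 1593 lower) and 71.4% when genes of the mitochondrial genome did not enter the scaling (1812 higher, 726 lower). Leaving out TM8 alone brought the genes lower in PB down to 712, and leaving out TM5 alone to 732. Without PB1, 2473 genes were called, 2399 of them among the 2706. Of the genes the rule names, GYS1, TIE1, PECAM1, PDGFRB, DOK7, HOXB2 and HLF lost their call without PB1 (edgeR adjusted p between 0.0514 and 0.0681), as did POSTN (0.0849), while PLIN4 (0.0457) and ATF3 (0.0464) passed. Within the same fit of all 40 libraries, PB differed from LDM in 41.7% of genes and from HM in 27.6%, while TM differed from HM in 0.768%.

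**Figure D1:**
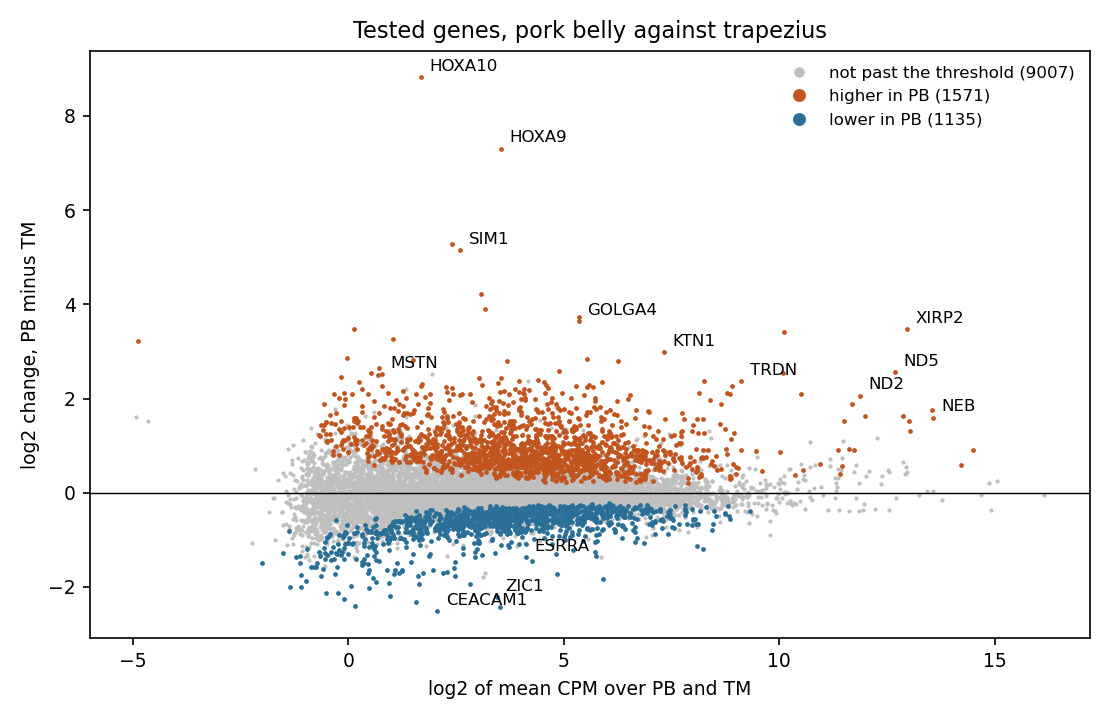
Each point is 1 of the 11713 tested genes, with the log2 of its mean CPM over both cuts on the x axis and the log2 change, PB minus TM, on the y axis; called genes are coloured. Called genes with a symbol and a mean of at least 1 CPM in either cut reach further above 0 than below it. They run from 8.82 for HOXA10 to -2.51 for CEACAM1.

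In 278 genes (2.37% of those tested) no PB library overlapped any TM library. PB lay above TM in 265 of them (2.26%) and below in 13 (0.111%). The genes with the widest gap were singled out after their values were seen.

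GOLGA4, a golgin of the trans-Golgi network, had the widest gap. It ran from 52.8 to 99.8 CPM in PB with a median of 73.5, against 3.75 to 8.93 CPM in TM with a median of 6.23. Every PB library was above every TM library, and the log2 change was 3.64 ± 0.29 (SE; edgeR adjusted p = 4.88e-12). LDM and HM averaged 4.24 and 5.13 CPM, close to TM.

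KTN1, kinectin, a kinesin-binding protein of the endoplasmic reticulum, stood between 145 and 513 CPM in PB (median 255) and between 22.6 and 63.5 CPM in TM (median 33.4). The cuts did not overlap, with a log2 change of 2.98 ± 0.34 (edgeR adjusted p = 3.33e-08). TPR, which forms the basket of the nuclear pore, had a median of 82.9 CPM in PB and 17.6 CPM in TM, a log2 change of 2.24 ± 0.19. SMC3, a subunit of the cohesin ring, had medians of 36.3 CPM in PB and 6.61 CPM in TM (log2 change 2.36 ± 0.26). None of these PB ranges met the TM range. ESF1, a nucleolar protein, had medians of 20.2 CPM in PB and 2.85 CPM in TM (2.80 ± 0.30), and CEBPZ, a nuclear protein, 45.0 CPM in PB and 7.15 CPM in TM (2.59 ± 0.31). AKAP9, a scaffold of the Golgi and centrosome, had medians of 123 CPM in PB and 13.7 CPM in TM.

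Giant proteins of the muscle fibre itself were among these genes. XIRP2, an actin-binding protein of the Z-disc region, ran from 3413 to 35289 CPM in PB with a median of 12151, and from 730 to 2338 CPM in TM with a median of 1428. The lowest PB library was above the highest TM library, and the log2 change was 3.47 ± 0.50 (edgeR adjusted p = 3.02e-06). It took 0.323% to 2.57% of all counts in a PB library and 0.0847% to 0.227% in a TM library. NEB, nebulin, which runs along the thin filament, had medians of 17529 CPM in PB and 5771 CPM in TM, with a log2 change of 1.59 ± 0.17. DMD, dystrophin, which links actin to the membrane, had medians of 254 CPM in PB and 71.8 CPM in TM, with a log2 change of 1.57 ± 0.17. Neither gene's PB values reached down to its TM values.

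TRDN, triadin, anchors calsequestrin at the calcium release channel of the sarcoplasmic reticulum. It ran from 466 to 1717 CPM in PB (median 763) and from 94.1 to 375 CPM in TM (median 157), with no overlap and a log2 change of 2.37 ± 0.32 (edgeR adjusted p = 8.65e-07). It was the only called member of the calcium and excitation list, 1 higher and 0 lower of 20 tested, with a list median of -0.04.

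Longer gene models were called higher in PB more often. In the fifth of tested genes with the shortest models, 5.93% were higher in PB, and in the fifth with the longest, 23.1% were; the shares lower in PB were 8.49% and 9.39%. When the trend with gene length was removed from each library before the fit, an alternative added after the data were seen, 1637 genes were higher in PB and 1087 lower. GOLGA4, KTN1, XIRP2 and TRDN stayed called. Base composition of the genes was not measured here, and the part of gene length in the single calls was not tested.

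Families named by the words of the gene descriptions, and chosen after the results were seen, were counted in the same way. Of 33 centrosomal proteins tested, 18 were higher in PB and 0 lower, and the family had a median log2 change of 0.52. Of 7 structural maintenance of chromosomes proteins, 6 were higher and 0 lower, and of 80 coiled-coil domain proteins 20 were higher and 3 lower. Ubiquitin specific peptidases had 13 higher and 3 lower of 42, and DnaJ proteins 13 higher and 4 lower of 35. Tetraspanins had 0 higher and 4 lower of 17, solute carriers 13 higher and 20 lower of 218, and mitochondrial ribosomal proteins 3 higher and 5 lower of 70. Against these stand the 13.4% and 9.69% of all tested genes.

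Far fewer genes lay wholly below TM, and those named here for that were chosen after their values were seen. RNF167, a ubiquitin ligase of endosomes, ran from 8.23 to 12.5 CPM in PB and from 13.4 to 20.7 CPM in TM, with a log2 change of -0.68 ± 0.11 (edgeR adjusted p = 2.63e-05). COQ4, a gene of coenzyme Q synthesis, had medians of 2.47 CPM in PB and 5.02 CPM in TM (log2 change -1.78 ± 0.33), and NISCH, which codes for nischarin, 20.8 CPM in PB and 33.0 CPM in TM (-0.59 ± 0.10).

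**Figure D2:**
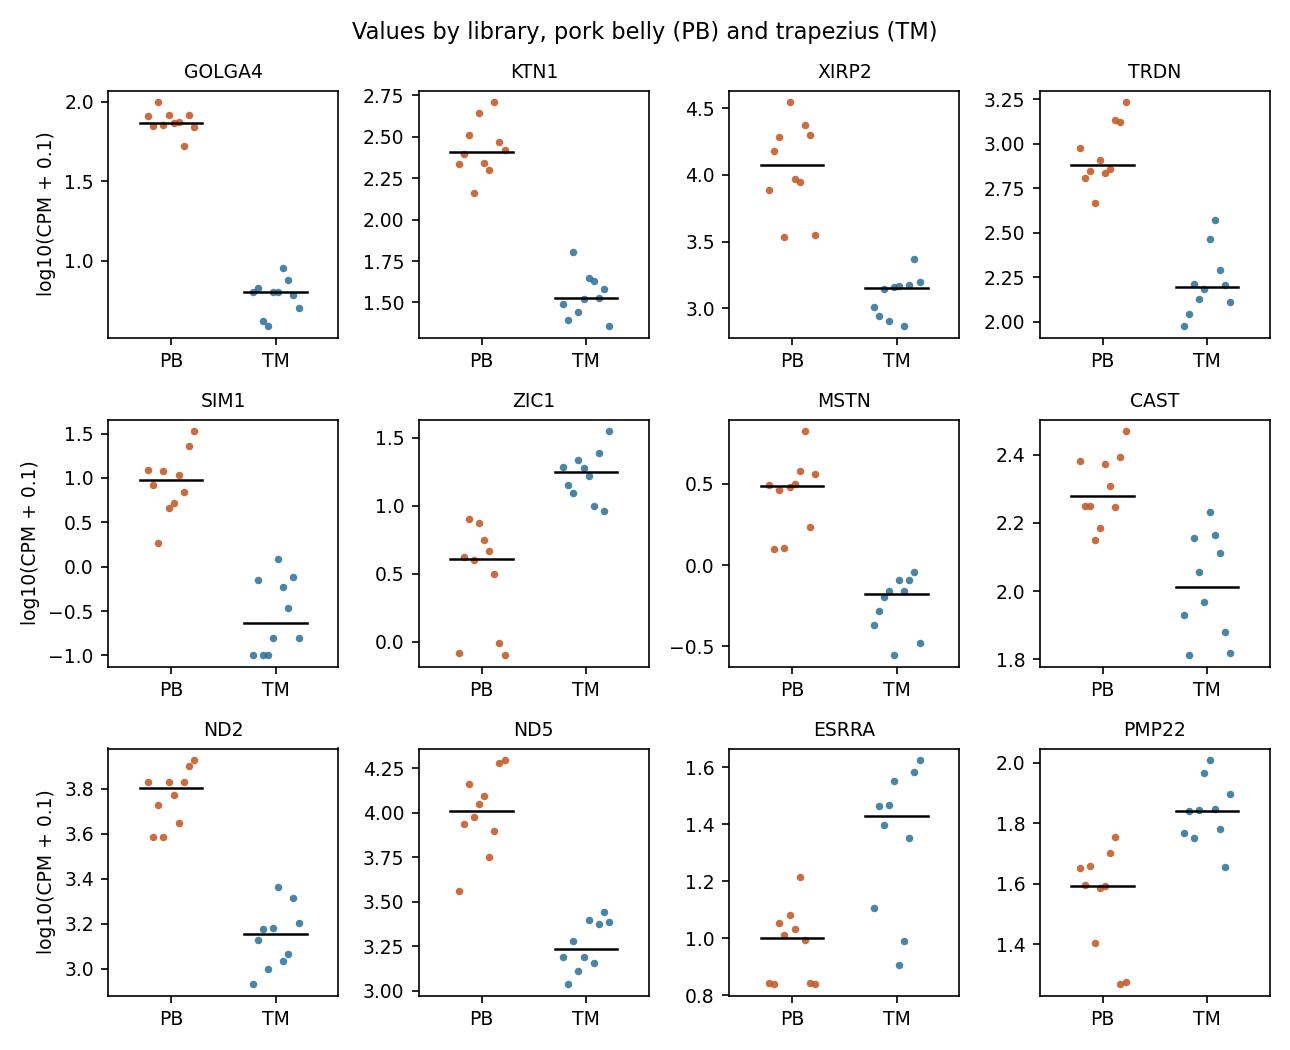
Values of 12 genes by library, PB on the left and TM on the right of each panel, as log10(CPM + 0.1); points are libraries and lines are medians. GOLGA4, KTN1, XIRP2, TRDN, SIM1, MSTN, ND2 and ND5 have every PB point above every TM point, and ZIC1 has every PB point below.

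Genes that pattern the body axis differed in both directions. SIM1, a transcription factor of the basic helix-loop-helix PAS family, on chromosome 1 (67214337 to 67294397, Sscrofa11.1), ran from 1.75 to 33.9 CPM in PB with a median of 9.51, and from 0 to 1.12 CPM in TM with a median of 0.149. All 10 PB libraries were above all TM libraries, and the log2 change of 5.15 ± 0.72 was called (edgeR adjusted p = 1.72e-06). SIM1 averaged 4.02 CPM in LDM and 0.213 CPM in HM.

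ZIC1 and ZIC4 code for zinc finger factors of the dorsal neural tube and somites and are neighbours on chromosome 13, on opposite strands with 3488 bases between them. ZIC1 ran from 0.694 to 7.90 CPM in PB (median 3.96) and from 9.07 to 35.4 CPM in TM (median 17.7), with no overlap and a log2 change of -2.22 ± 0.50 (edgeR adjusted p = 0.00119). ZIC4 had medians of 2.59 CPM in PB and 12.7 CPM in TM, and 9 of the 10 PB libraries were below the lowest TM library (log2 change -1.94 ± 0.53, edgeR adjusted p = 0.00697). Over the whole list of other positional factors, 3 were higher in PB and 7 lower of 21 tested.

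HOXA9 and HOXA10, posterior genes of the HOXA cluster on chromosome 18, had the largest log2 changes of all genes the rule could name, and nearly all of their PB counts came from 2 libraries. HOXA9 had 2050 counts in PB9 and 1017 in PB10, against 0 to 16 in the other 8 PB libraries and at most 6 in a TM library. HOXA10 had 380 counts in PB9 and 471 in PB10, at most 1 in the other PB libraries and 1 count over all 10 TM libraries. PB9 and PB10 held 98.4% of the HOXA9 counts of PB and 99.8% of those of HOXA10.

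The fitted changes were 7.31 ± 1.38 for HOXA9 (edgeR adjusted p = 1.58e-04) and 8.82 ± 1.84 for HOXA10 (5.65e-04). The ratio of PB to TM counts was 145 for HOXA9 (95% exact interval 96.2 to 228) and 910 for HOXA10 (163 to 36004), where the intervals cover counting error only. Without PB9 and PB10, HOXA9 had an edgeR adjusted p of 0.279 and a count ratio of 2.89 (1.73 to 4.96), and HOXA10 an adjusted p of 0.830 and a ratio of 2.66 (0.138 to 157) from 2 PB counts and 1 TM count. limma-voom with quality weights called neither gene, with adjusted p = 0.130 and 0.134. HOXA7, the neighbour on the anterior side, had 23.0 and 17.9 CPM in PB9 and PB10, 0.706 to 3.59 CPM in the other PB libraries and 0.120 to 3.10 CPM in TM; its call (log2 change 1.90 ± 0.50) was lost without PB9 and PB10 (adjusted p = 0.349). HOXA13 had 9 counts in PB and 0 in TM, and its call (edgeR adjusted p = 0.0245) was lost without PB10 (0.0716) and without both PB9 and PB10 (0.179), when 2 PB counts remained; limma-voom did not make it (0.224).

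PB9 and PB10 also stood apart from the other 8 PB libraries at genes picked after their values were seen. HOXD8 had 64.1 and 120 CPM there, above the highest other PB library at 46.9 CPM and within or above the TM range of 2.16 to 84.9 CPM. HOXC8 had 0.512 and 3.47 CPM, below the lowest other PB library at 4.50 CPM. SIM1 was also highest in PB9 and PB10 and ZIC4 lowest, at 0.146 and 0.154 CPM. In HM all 10 libraries had HOXA9, from 19.3 to 59.8 CPM, and in LDM it ran from 0.243 to 29.8 CPM. HOXC10 was at 0.219 CPM in PB9 and 0.309 CPM in PB10, against a mean of 54.6 CPM in HM. HOX values varied within TM too. HOXC8 was at 0.060 CPM in TM2 and 0.074 CPM in TM9, against 2.68 to 33.2 CPM in the other TM libraries.

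The anterior genes HOXB2, HOXB3 and HOXB4 were lower in PB, HOXB2 less firmly. The HOXB2 call (log2 change -0.69 ± 0.24, edgeR adjusted p = 0.0294) was lost without any 1 of 7 libraries and in 5 other alternatives. HOXB3 had medians of 0.893 CPM in PB and 1.66 CPM in TM (log2 change -1.26 ± 0.33, edgeR adjusted p = 0.00459), and HOXB4 had 0.247 CPM in PB and 0.779 CPM in TM (-1.57 ± 0.48). Of the 11 tested genes of HOX groups 1 to 5, 0 were higher and 3 lower, with a median of -0.69. Groups 6 to 9 had 2 higher and 1 lower of 9 tested, and groups 10 to 13 had 2 higher and 0 lower of 5. Without PB9 and PB10 none of the genes of groups 6 to 13 was called higher. HOXC10 had 158 of its 165 PB counts in PB1 to PB8, and 47 of its 64 TM counts in TM7. It was not called (log2 change 1.78 ± 0.77, edgeR adjusted p = 0.0870). It passed without TM7 (3.41, edgeR adjusted p = 0.00347), and narrowly in DESeq2 (adjusted p = 0.0492) and limma-voom (0.0488). HOXB5 did not pass the filter on low counts and had 5 counts in PB and 232 in TM. Nearly all of the TM counts came from TM2, TM6 and TM9, at 3.30, 6.42 and 4.05 CPM; the other 7 TM libraries were at 0 to 0.179 CPM, like the PB libraries at 0 to 0.231 CPM.

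**Figure D3:**
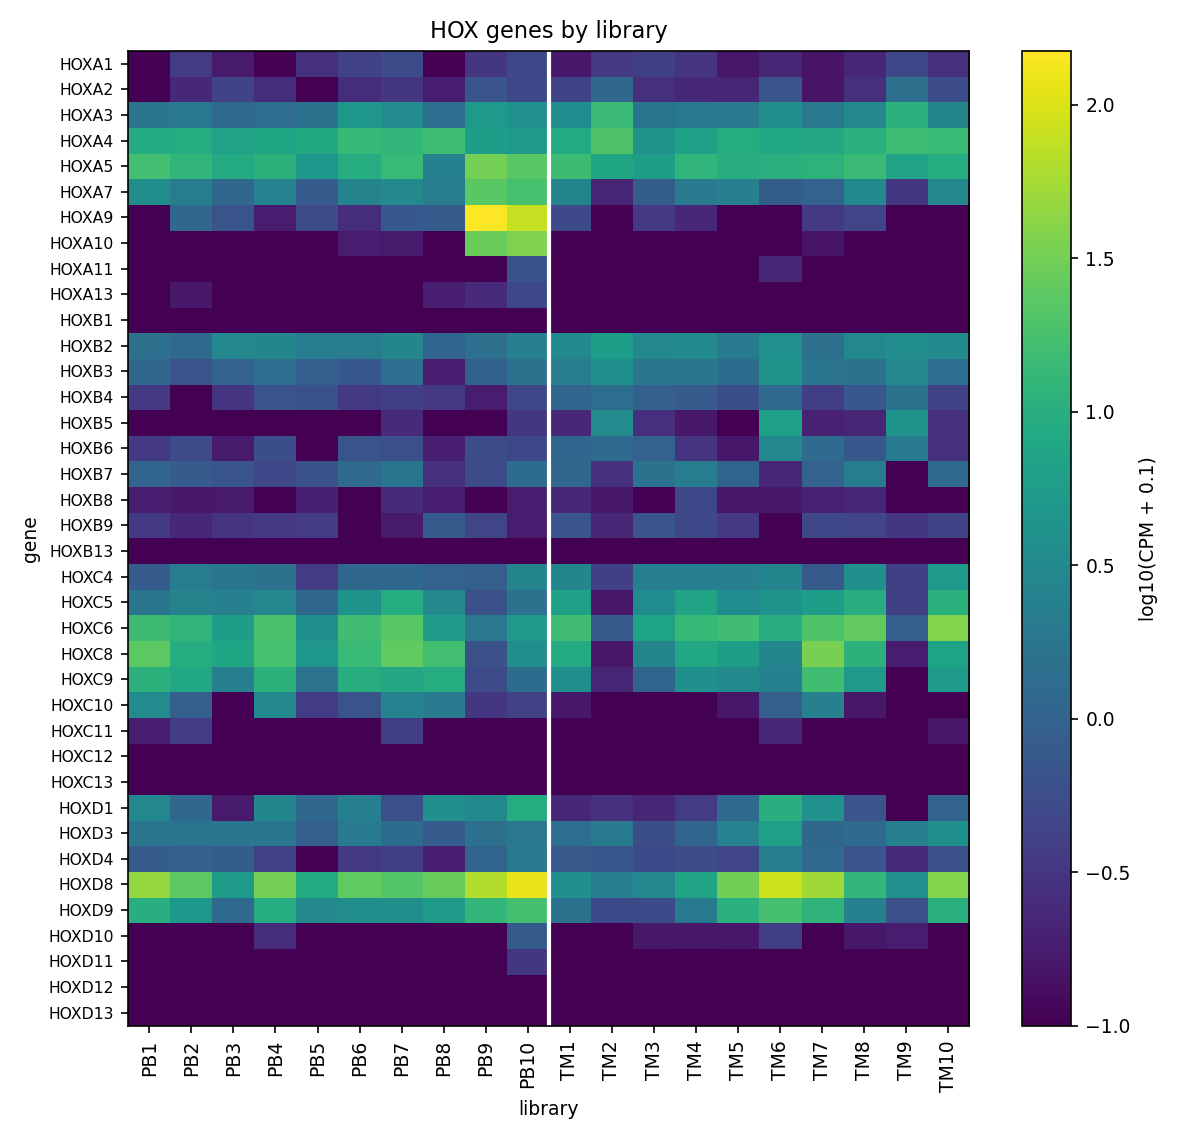
HOX genes, HOXA to HOXD from top to bottom and by number, in each library as log10(CPM + 0.1), with PB libraries on the left of the white line and TM libraries on the right. HOXA9 and HOXA10 are bright in PB9 and PB10 and dark in the other 18 libraries.

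Genes coded by the mitochondrial genome were higher in PB as a group. Of 12 tested, 11 were higher and 0 lower, with a median log2 change of 1.58, and 9 did not overlap between the cuts. The count was 11 in each of the 13 alternatives that did not leave out single libraries, and in each of the 20 that did. Here and for every list that follows, a change in the number of cells of a type and a change in RNA per cell cannot be told apart, because whole tissue was measured.

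ND2, a complex I subunit, ran from 3858 to 8493 CPM in PB (median 6343) and from 852 to 2318 CPM in TM (median 1423), with a log2 change of 2.06 ± 0.19 (edgeR adjusted p = 3.53e-10). ND5, also of complex I, ran from 3635 to 19917 CPM in PB and from 1085 to 2772 CPM in TM (2.57 ± 0.25), and ATP6, of the ATP synthase, from 7602 to 13726 CPM in PB and from 2319 to 5979 CPM in TM (1.63 ± 0.16). The lowest PB library exceeded the highest TM library at each of the 3. COX1, the catalytic subunit of cytochrome oxidase, was the 1 member that did not pass, with 36596 ± 7324 CPM in PB and 30768 ± 7175 CPM in TM (SD, n = 10 each; log2 change 0.25 ± 0.14, edgeR adjusted p = 0.211), and COX3, named after its value was seen, had 0.59 ± 0.13. The changes were thus unequal across the mitochondrial genes. ND6, tested with the others, lies on the other strand from the rest, and without a stated strand setting its reads cannot be told from those of genes it faces.

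The nuclear genes of the same machinery did not move as a group. Of 39 tested subunits of complexes I to V, 2 were higher (NDUFS4 0.45 ± 0.13, NDUFA5 0.59 ± 0.17) and 2 lower, with a median of -0.09; NDUFA5 did not pass without PB9 and PB10 (edgeR adjusted p = 0.0647). The citric acid cycle had 3 higher and 0 lower of 19, a share higher in PB near the 13.4% of all tested genes. DLD, the dihydrolipoyl dehydrogenase of the pyruvate and oxoglutarate complexes, had medians of 222 CPM in PB and 106 CPM in TM (log2 change 0.89 ± 0.17, edgeR adjusted p = 1.37e-04), with 9 of 10 PB libraries above every TM library. SUCLA2, a subunit of succinyl-CoA synthetase, changed by 0.69 ± 0.15.

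Fatty acid uptake and oxidation had 4 higher and 0 lower of 24, again a share higher in PB near the 13.4% of all tested genes. DECR1, a reductase that prepares unsaturated fatty acids for oxidation, ran from 55.5 to 86.8 CPM in PB and from 28.0 to 49.5 CPM in TM, without overlap (log2 change 0.90 ± 0.17, edgeR adjusted p = 1.95e-04). ACADM, the medium-chain acyl-CoA dehydrogenase, had medians of 443 CPM in PB and 211 CPM in TM (0.90 ± 0.20). The median of this list was -0.09, near that of all genes.

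Among regulators of oxidative metabolism 4 were higher and 2 lower of 19. ESRRA, the estrogen-related receptor that drives mitochondrial genes, ran from 6.79 to 16.3 CPM in PB and from 7.95 to 42.2 CPM in TM, with medians of 9.95 CPM in PB and 26.95 CPM in TM (log2 change -1.37 ± 0.26, edgeR adjusted p = 1.94e-04). SOX6, a repressor of slow fibre genes, had medians of 30.3 CPM in PB and 15.1 CPM in TM (1.02 ± 0.26), and TFAM, which packages mitochondrial DNA, 27.5 CPM in PB and 16.01 CPM in TM (0.72 ± 0.19). PPARGC1A, a coactivator of oxidative genes, did not pass, with medians of 42.3 CPM in PB and 73.4 CPM in TM and an adjusted p of 0.424.

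Slow and fast fibre genes overlapped between the cuts, and few passed. Of 14 slow fibre genes 0 were called in edgeR in either direction. At an unadjusted p under 0.05 there was 1, which was higher in PB, and DESeq2 and limma-voom each called 1 higher. The median of the slow list was -0.37. MYH7, the slow myosin heavy chain, averaged 26718 ± 8589 CPM in PB and 34616 ± 19565 CPM in TM (SD, n = 10 each; log2 change -0.37 ± 0.32, edgeR adjusted p = 0.419). TM libraries ran from 4399 to 73050 CPM and enclosed the PB range of 13364 to 36393 CPM.

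The fast fibre list had 1 higher and 0 lower of 15 and a median of 0.36. The called entry was a gene model that joins the fast myosin genes MYH4, MYH1 and MYH2 on chromosome 12 (55190429 to 55278539); its reads cannot be assigned to one of them. It ran from 15747 to 55224 CPM in PB (median 28517) and from 6261 to 24186 CPM in TM (median 16276), with a log2 change of 0.92 ± 0.23 (edgeR adjusted p = 0.00408). With the length trend removed it was 0.64 and did not pass (adjusted p = 0.0517). Developmental and cardiac contractile genes had 1 higher and 0 lower of 6: MYH8, the perinatal myosin, was higher in PB (1.53 ± 0.36), with medians of 15.6 CPM in PB and 6.998 CPM in TM.

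The slow share of paired muscle genes, slow FPKM as a percent of slow plus fast, gave 9 values per library. It was lower in PB on average for 8 pairs and higher for calsarcin. The calcium pump pair, ATP2A2 against ATP2A1, averaged 21.9% ± 9.86 in PB and 37.6% ± 18.4 in TM (SD, n = 10 each; permutation test of 100000 resamples, two-sided p = 0.0277, 0.249 after adjustment over 9 pairs). The myosin heavy chain pair averaged 47.2% ± 15.4 in PB and 62.9% ± 22.8 in TM, with an adjusted permutation p of 0.269. No pair passed; the adjusted values ran from 0.249 to 0.917. Without TM7, whose slow share was the lowest of TM in each of the 9 pairs, the essential light chain, calcium pump and myosin heavy chain pairs passed at an adjusted permutation p of 0.0355 each.

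**Figure D4:**
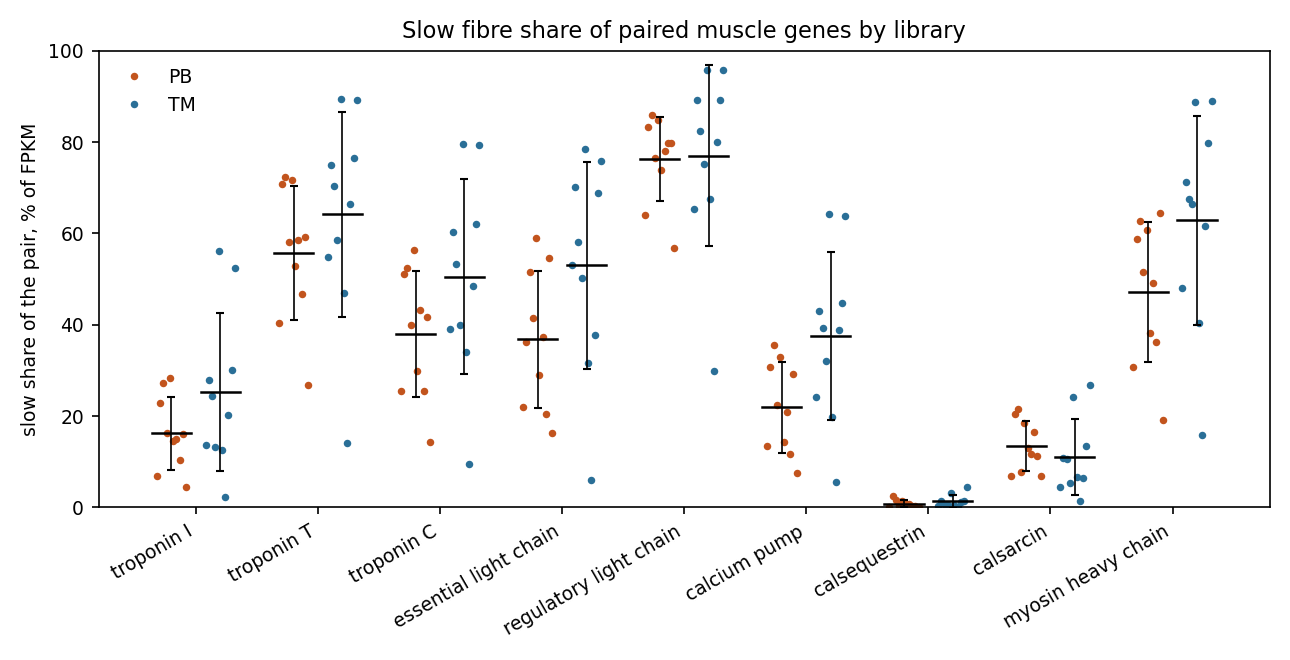
Slow share of each of 9 gene pairs, in percent of the FPKM of the pair, by library, with PB on the left and TM on the right of each pair; lines are means and bars are SD over 10 libraries. PB and TM overlap in every pair, and TM has the larger SD in each of the 9.

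Glycogen and glycolysis genes had 2 higher and 1 lower of 16, near the shares over all tested genes. PHKA1, a subunit of phosphorylase kinase, changed by 0.79 ± 0.27 and lost its call without PB10, without TM10 or with PB9 and PB10 left out (adjusted p = 0.193).

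No gene of the fat cell and fat synthesis lists was called higher in PB. The adipocyte list had 0 higher and 1 lower of 12 (CFD, the complement factor adipsin, -0.53 ± 0.17, not called without TM6, TM7 or TM8), and a median of -0.39; its summed level ran from 923 to 2079 CPM in PB and from 1223 to 2066 CPM in TM. ADIPOQ, adiponectin, had medians of 15.8 CPM in PB and 24.6 CPM in TM with an adjusted p of 0.550. The synthesis list had 0 higher and 2 lower of 18. In this list and in the adipocyte list, the share lower in PB was near the 9.69% of all tested genes. FADS2, the delta-6 desaturase, ran from 2.56 to 11.12 CPM in PB and from 8.26 to 21.3 CPM in TM (log2 change -0.98 ± 0.25, edgeR adjusted p = 0.00440), with 7 PB libraries below every TM library. SREBF1, the sterol regulatory factor, changed by -0.64 ± 0.21 and did not pass without TM10 (adjusted p = 0.0852). FASN, fatty acid synthase, had medians of 24.2 CPM in PB and 30.5 CPM in TM and did not pass, nor did SCD. LEP was too low to be tested.

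Among markers of nerve and vessel wall the called genes were lower in PB. The Schwann cell list held 5 of them, the smooth muscle and pericyte list 4 and the endothelial list 2. Of 7 tested Schwann cell genes 0 were higher and 5 lower, with a median of -1.49. PMP22, a myelin protein, ran from 18.4 to 56.7 CPM in PB and from 45.0 to 102 CPM in TM, and 7 PB libraries were below every TM library (log2 change -0.90 ± 0.21, edgeR adjusted p = 0.00194). PRX, periaxin, changed by -1.49 ± 0.38 at medians of 1.154 CPM in PB and 2.53 CPM in TM, and SOX10, the glial transcription factor, by -1.50 ± 0.47 at 0.671 CPM in PB and 1.61 CPM in TM, a call that limma-voom did not make (adjusted p = 0.0736). MBP, myelin basic protein, named after its value was seen, did not pass, at 41.3 ± 19.8 CPM in PB and 40.3 ± 23.3 CPM in TM (SD, n = 10 each). Over 13 alternatives the Schwann list had between 2 and 5 members lower.

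Smooth muscle and pericyte genes had 0 higher and 4 lower of 10, with a median of -0.75, 2 lower without PB1 and between 1 and 8 lower over the same alternatives. NOTCH3, a receptor of vascular smooth muscle, had medians of 27.9 CPM in PB and 45.2 CPM in TM (log2 change -0.90 ± 0.23, edgeR adjusted p = 0.00447). The endothelial list had 0 higher and 2 lower of 13, where 9.69% of all tested genes were lower. These were TIE1 and PECAM1, both lost when TM3, TM5, TM8 or one of several other libraries was left out. Over the same alternatives the list had between 0 and 7 members lower.

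Matrix genes had 2 higher and 3 lower of 24. COL4A2, a chain of basement membrane collagen, had medians of 227 CPM in PB and 440 CPM in TM (log2 change -0.78 ± 0.22, edgeR adjusted p = 0.00906), which did not pass without PB9 and PB10 (0.0554). POSTN, periostin, was higher in PB (2.26 ± 0.68) with medians of 2.61 CPM in PB and 1.19 CPM in TM, and its highest value, 25.1 CPM, was in PB1; without PB1 its adjusted p was 0.0849. COL1A1, the main fibrillar collagen, had medians of 175 CPM in PB and 276 CPM in TM and did not pass.

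MSTN, myostatin, the secreted inhibitor of muscle growth, was higher in PB. It ran from 1.16 to 6.61 CPM in PB with a median of 2.96, and from 0.178 to 0.811 CPM in TM with a median of 0.562, so that no library overlapped (log2 change 2.52 ± 0.42, edgeR adjusted p = 3.14e-05). LDM averaged 2.22 CPM and HM 1.43 CPM, between the PB and TM medians. In the same list of satellite cell and myogenic genes 2 were higher and 2 lower of 12. MYMK, myomaker, the membrane protein that fuses myoblasts, was lower (-2.14 ± 0.48), with 9 of 10 PB libraries below the lowest TM library; IGF2 had -0.49 ± 0.13. PAX7, the satellite cell factor, did not pass.

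Proteolysis genes had 2 higher and 1 lower of 16, near the shares over all tested genes. CAST codes for calpastatin, the inhibitor of the calpains that break down muscle proteins after slaughter. It ran from 142 to 295 CPM in PB (median 190) and from 64.7 to 170 CPM in TM (median 103), and 8 PB libraries were above every TM library (log2 change 0.91 ± 0.17, edgeR adjusted p = 9.58e-05). CTSD, the lysosomal protease cathepsin D, had medians of 206 CPM in PB and 284 CPM in TM (-0.55 ± 0.16). UTRN, utrophin, the relative of dystrophin found at the neuromuscular junction, was higher in PB (0.84 ± 0.21).

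CEACAM1, a cell adhesion molecule, had the lowest log2 change among the genes the rule could name (-2.51 ± 0.55, edgeR adjusted p = 9.84e-04), with medians of 0.703 CPM in PB and 7.26 CPM in TM. In 6 PB libraries it lay below the lowest TM library. The change was -3.12 without PB3, -3.30 without PB3, PB5 and PB8, and -3.27 in limma-voom. PKP2, plakophilin of the desmosome, had -2.13 ± 0.60 and did not pass without PB3, PB5 and PB8 (edgeR adjusted p = 0.0546), and LRRC38, an accessory subunit of potassium channels, -2.02 ± 0.51.

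Several genes with large changes were carried by PB3, PB5 and PB8. HSPA6, an inducible heat shock protein, had 1121 CPM in PB3, 6031 CPM in PB5 and 12496 CPM in PB8, against at most 263 CPM in the other 7 PB libraries and 10.2 to 824 CPM in TM. Its log2 change was 3.41 ± 1.11 (edgeR adjusted p = 0.0221) and became -0.98 without the 3 libraries (adjusted p = 0.480). PRKG1, a cyclic GMP-dependent kinase, ran from 77.1 to 324 CPM in the 3 libraries and from 7.82 to 30.2 CPM in the other PB libraries, against 3.37 to 10.8 CPM in TM; without them its change was 1.52 (adjusted p = 0.0544) in place of 3.73. SERPINB2, a plasminogen activator inhibitor, had 6.92 to 75.9 CPM in them and at most 0.815 CPM in the others.

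The heat shock list had 2 higher and 0 lower of 16, DNAJB4 and DNAJA1, and without PB3, PB5 and PB8 it had 0 higher and 1 lower. Of 19 immediate early genes 0 were called in edgeR, with 2 higher at an unadjusted p under 0.05, 2 higher in DESeq2 and 0 in limma-voom. PTPRC, the leukocyte antigen CD45, was the only called leukocyte gene of 11 and owed its call to PB8, at 32.4 CPM against at most 5.73 CPM in the other PB libraries; without PB8 its log2 change was 0.45 (edgeR adjusted p = 0.364). XIRP2 and KTN1 were also high in the 3 libraries, but the lowest of the other 7, 3413 and 145 CPM, still exceeded the highest TM values. In all, 2665 genes were called without the 3 libraries, 1955 of them among the 2706.

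Clock genes had 3 higher and 0 lower of 16, where 13.4% of all tested genes were higher. CLOCK was at 0.62 ± 0.17 and NR1D2 at 0.67 ± 0.19. Iron and heme genes had 0 higher and 2 lower of 11, ALAS1 and CYGB, and 0 lower without PB9 and PB10. Neuromuscular junction genes had 1 higher and 2 lower of 9; the 2 lower, DOK7 and LRP4, both lost their call without TM3 (edgeR adjusted p = 0.0804 for DOK7 and 0.0735 for LRP4), and DOK7 did so without any 1 of 11 libraries and LRP4 without any 1 of 13. Cytosolic ribosomal proteins had 4 higher and 12 lower of 44, among them RPL7 higher (0.55 ± 0.10) and RPS16 lower (-0.43 ± 0.10). This count moved with the scaling: 20 were lower with upper-quartile scaling and 6 when the mitochondrial genes were taken out first. Of 3 keratinocyte genes tested edgeR called 0, with 0 at an unadjusted p under 0.05, 0 in DESeq2 and 0 in limma-voom.

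**Figure D5:**
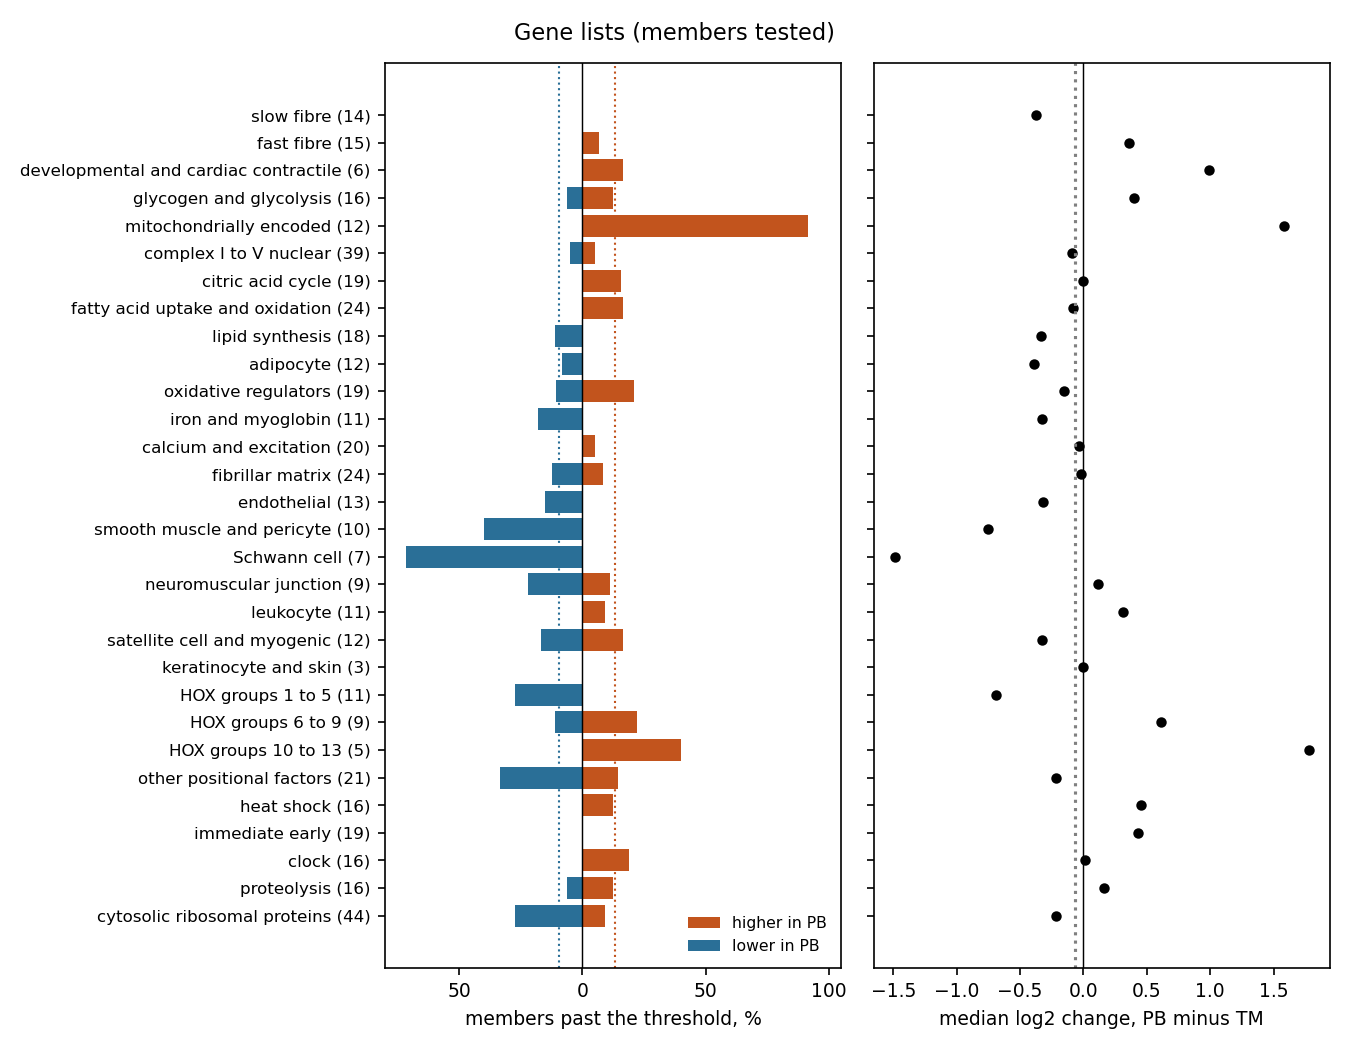
Left, the percent of tested members of each of 30 lists called higher (orange) or lower (blue) in PB, with dotted lines at 13.4% and 9.69%, the shares over all tested genes; right, the median log2 change of each list, with a dotted line at -0.06, the median of all tested genes. The mitochondrially encoded list reaches furthest to the higher side, with 11 of 12, and the Schwann cell list furthest to the lower side, with 5 of 7.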

How the data were processed

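RNA-seq read counts were compared between 10 PB and 10 TM libraries. The authors deposited a table of 21280 genes with whole-number counts and FPKM values for 40 libraries, per the file headers. The deposited FPKM values equal the scaled counts and were used only for slow shares. The build Sscrofa11.1 and the tools HISAT2 2.0.5, HTSeq 0.9.1 and cutadapt 1.15 are named in the submitters' processing notes. How strand was set when counting was not given in the sources used, so overlapping and near-identical genes are uncertain. Symbols were deposited for 14883 genes and taken from reference tables for 1264; 5138 had none.

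edgeR 4.0.16 in R 4.3.3 (TMM, filterByExpr by cut, robust quasi-likelihood fit of all 40 libraries) tested the PB minus TM contrast, with Benjamini-Hochberg adjustment over 11713 genes. Log2 CPM used a prior count of 2. On simulated data for this comparison (11706 genes), 13.4% of genes changed by a log2 of 0.5 were called, 89.6% at 1 and 98.5% at 2, with 6 false calls among 11507. The simulation gave every gene the same median dispersion, mean levels taken over all 40 libraries, and independent libraries. Real genes were less even, and some were carried by a few libraries, such as HSPA6. The simulated rates therefore need not hold for the real data. Libraries of the same cut differed beyond sampling noise, with a chi-square per gene of at least 30.1 between any pair. Intervals cover counting error only.

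The members, the 30 lists, the families and the rule for named genes were chosen with earlier results of these data known. By log2 change the rule takes the 10 highest and 10 lowest called genes that have a symbol and a mean of 1 CPM or more in one of the cuts; it adds at most 3 genes per list, those with the smallest adjusted p, and a fixed set. The text describes most of these genes; some that the rule names are left out. Alternatives were RLE and upper-quartile scaling, mitochondrial genes out of the scaling, no filter, at least 1 CPM in 10 libraries, DESeq2 1.42.0, limma 3.58.1 voom with quality weights, the 20 libraries alone, a replicate block, TM3 and TM7 left out and each library left out. Added after the data were seen were PB9 and PB10 left out, PB3, PB5 and PB8 left out, and the length trend removed.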

Additional observations from a re-analysis of the deposited data

Results flagged for a closer look

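Of 246 groups of 10 libraries checked, 17 held a library whose gap to its nearest neighbour was large for the range of the group; chance gives about 1 in 20. Values are CPM unless stated, and their causes were not tested.

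PB8 stood apart at 8 genes. It was highest in PB for IL13RA2, an interleukin receptor (29.8), and PTPRC (32.4), and lowest for DLD (105.4), PDHB (68.8), ETFA (59.4), PLIN4 (55.7), NOTCH3 (4.04) and HOXB3 (0.0826). PB5 was highest in PB for PPARGC1A (518) and PB1 lowest for SOX10 (0.0815).

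TM7 was lowest in TM for the slow fibre genes MYBPC1 (3013) and MYL3 (106), had the lowest slow share of the regulatory light chain (29.8%), and held the 1 HOXA10 count of TM (0.0491). The other 9 TM libraries had no HOXA10 count, so 1 count sufficed for that flag. SREBF1 was highest in TM10 (75.8) and TAGLN in TM1 (315). The total count was highest in TM10, at 17735722.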

How the results depend on the processing

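The number of called genes, 2706, ran from 2005 to 3363 over the alternatives other than single libraries left out, and from 2218 to 2698 when each library was left out in turn. Genes lower in PB, 1135, were 555 without PB9 and PB10 and 726 with mitochondrial genes kept out of the scaling, and 712 to 1150 with single libraries left out; genes higher in PB were 1363 to 1813. Changes of 2-fold were met by 661 to 935 genes, 533 to 801 higher and 114 to 194 lower, and those lower were 94 in the 20 libraries alone and 222 without PB3, PB5 and PB8. Genes without overlap were 279 to 364, 449 without TM3 and TM7, and 454 without PB3, PB5 and PB8, where fewer libraries enter. The share of called genes higher in PB was 72.3% without PB9 and PB10. SERPINB2 (-0.51, adjusted p = 0.799) and HSPA6 (-0.98) turned direction without PB3, PB5 and PB8; the cause was not tested.

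With single libraries left out, the PB minus TM difference in slow share ran from -11.7 to -5.66 percentage points for troponin I, -14.0 to -5.23 for troponin T, -17.1 to -9.35 for troponin C, -21.4 to -13.4 for the essential light chain, -6.02 to 1.38 for the regulatory light chain, -19.2 to -12.7 for the calcium pump, -0.67 to -0.15 for calsequestrin, 1.37 to 4.20 for calsarcin and -20.9 to -12.6 for the myosin heavy chain.

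The labels do not say that a number pairs libraries: same-numbered deviations correlated from 0.0124 to 0.47, over 0.1 in 9 of 10 pairs, and 3 PB and 1 TM libraries correlated best with their own number. With the replicate block 3314 genes were called, 2633 of them among the 2706. Genes near 1 CPM rest on few reads.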
